A study of Mus musculus with 60 samples.

Results

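The 10 genes described here belong to the circadian clock and its direct outputs: Arntl, Per1, Per2, Per3, Nr1d1, Nr1d2, Dbp, Tef, Hlf and Bhlhe41. They were taken by gene symbol from a table of 54352 genes, and each symbol matched 1 row. The measurements are 3′ digital gene expression counts, which tag each transcript near its 3′ end, from 3 tissues of C57BL/6JN mice: white fat from under the skin (scWAT, subcutaneous), white fat from the visceral depot (vWAT) and the triceps muscle. Mice are given as 12 weeks old. For 6 weeks they had eaten either chow or a fat-rich diet (HFD), whose fat supplied 10% and 60% of energy. In each diet, 5 mice stayed sedentary and 5 had a running wheel for the last 3 weeks, here called trained. All groups were fasted for 6 hours and, for the trained mice, wheels were locked for 24 hours before collection. The same 20 animals gave all 60 libraries, so each group of a tissue held 5 libraries. The hour of tissue collection is not given in the sources used here, and nor is the distance that each mouse ran.

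In the molecular clock, the protein of Arntl (BMAL1) pairs with CLOCK and switches on genes that carry E-boxes, among them the Per genes, the REV-ERB genes Nr1d1 and Nr1d2, and Dbp. PER proteins feed back to shut BMAL1 and CLOCK down, while the REV-ERB proteins repress Arntl itself through ROR elements, so that Arntl and the E-box genes peak at opposite times of day. Dbp, Tef and Hlf encode PAR bZIP transcription factors that carry the rhythm to output genes through D-boxes, and the clock runs in fat and muscle as it does in the brain.

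The promoter windows show which of these elements lie near the start sites of the clock genes. RefSeq windows of 300 bases on GRCm38.p6, from 250 bases before to 50 bases after a start, were found for 9 of the 10 genes, in 12 windows. Exact matches on both strands were sought for the E-box CACGTG, the E-prime box CACGTT, the D-box TTATGNAA and the ROR element TAGGTCA, none of which contains another. At least 1 match was found in 6 genes. Of 32851 promoter windows of this length, 7.15% held the E-box, 4.685% the E-prime box, 3.385% the D-box and 2.606% the ROR element. The windows below were chosen because they hold the E-box, D-box or ROR matches of genes from each arm of the loop, with the matched letters in capitals. They are Per3 (chr4:151044616-151044915, minus strand), Per1 (chr11:69098699-69098998, plus strand), Tef (chr15:81802423-81802722, plus strand) and Arntl (chr7:113207261-113207560, plus strand).
Per3: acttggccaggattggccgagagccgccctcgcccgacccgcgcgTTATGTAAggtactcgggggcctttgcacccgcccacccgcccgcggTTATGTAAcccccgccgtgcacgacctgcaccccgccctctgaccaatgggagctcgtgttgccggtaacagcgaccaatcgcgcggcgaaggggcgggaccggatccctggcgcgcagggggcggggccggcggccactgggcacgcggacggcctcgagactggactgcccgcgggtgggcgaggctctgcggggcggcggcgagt
Per1: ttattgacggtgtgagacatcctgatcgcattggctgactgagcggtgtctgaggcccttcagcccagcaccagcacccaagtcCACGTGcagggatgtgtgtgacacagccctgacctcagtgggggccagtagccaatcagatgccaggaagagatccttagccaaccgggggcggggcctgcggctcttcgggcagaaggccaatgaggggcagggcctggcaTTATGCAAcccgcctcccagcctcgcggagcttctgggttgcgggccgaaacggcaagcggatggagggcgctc
Tef: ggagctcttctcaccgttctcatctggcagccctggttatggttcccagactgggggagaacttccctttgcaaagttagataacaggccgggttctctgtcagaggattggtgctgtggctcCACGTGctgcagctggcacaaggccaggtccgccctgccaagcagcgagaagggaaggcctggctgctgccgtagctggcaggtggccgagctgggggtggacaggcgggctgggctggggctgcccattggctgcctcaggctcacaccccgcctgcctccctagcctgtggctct
Arntl: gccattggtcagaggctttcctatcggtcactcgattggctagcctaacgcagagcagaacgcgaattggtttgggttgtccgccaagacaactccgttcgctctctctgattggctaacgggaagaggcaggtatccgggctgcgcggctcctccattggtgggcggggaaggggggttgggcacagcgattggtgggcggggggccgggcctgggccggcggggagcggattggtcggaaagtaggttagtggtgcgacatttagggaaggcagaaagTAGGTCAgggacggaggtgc
In the windows shown, Per3 held 2 D-boxes, Per1 an E-box and a D-box, Tef an E-box and Arntl a ROR element. Tef, Per1 and Arntl each had another window, which held an E-box in Tef and no match in Per1 and Arntl. Bhlhe41 held an E-box and Nr1d1 an E-prime box on the other strand, whereas no match lay in the windows of Dbp, Hlf and Nr1d2. A match is a description of the letters and not evidence of binding.

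Library totals ranged from 505336 to 744581 estimated counts, and clock genes were low: the fat libraries held at most 64 counts of any of the 10 genes. A count of 0 allows up to 3 counts, or 4.03 to 5.94 CPM (counts scaled to library total) depending on the library, which covers counting error only. Of the 10 genes, the filter on low counts passed 6 (scWAT), 5 (vWAT) and 5 (triceps). The filter needs about 10 counts in as many libraries as 1 group holds, so 1 high group is enough. Median Dbp counts in sedentary and trained libraries were 4 and 25.5 (scWAT), 3 and 19.5 (vWAT) and 7 and 18.5 (triceps). Those of Per3 in vWAT were 7 and 24.5. These genes passed through trained libraries, where they were high, so their place among the called members is no support. Counts of called members are over those that passed, not over all 10, which does not remove this selection. Adipocyte markers were abundant in every fat library and skeletal muscle markers in every triceps library. Muscle markers also appeared in scWAT, where their 15 genes summed to 325 to 43741 counts in HFD sedentary and 164 to 1325 counts in HFD trained libraries. On chow they summed to 117 to 18830 counts in sedentary and 205 to 67816 counts in trained libraries. B cell markers exceeded 100 counts in 6 scWAT libraries, 3 sedentary and 3 trained, all on chow. In whole tissue, fewer cells of a type and less RNA per cell cannot be told apart.

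Trained mice had more Dbp, Tef, Per3 and Nr1d2 RNA than sedentary mice in both fat depots, by 1.23 to 2.90 on the log2 scale where the change passed the test, and less Arntl RNA in all 3 tissues on HFD. In triceps, Dbp rose on HFD, and Tef and Nr1d1 did not follow the fat depots. The members were chosen with earlier results of these data known. Their counts and medians set beside all genes, here and below, are therefore a description and not support. Arntl, which fell, failed the filter in every tissue and is not among the tested members counted in this paragraph. In scWAT on HFD, 5 of the 6 tested members were called, all higher, against 1.00% of the 7069 genes tested, or 0.707% called higher. The members' median log2 fold change there was 1.33, beside -0.01 over all genes tested. In vWAT, 4 of 5 rose on chow, against 0.587% of 6990 genes called and 0.272% called higher. On HFD 5 of 5 rose, against 3.09% called and 1.22% called higher. The vWAT medians were 1.28 on chow and 1.57 on HFD, with medians of 0.00 and 0.02 over all genes. In triceps, 1 of 5 rose on HFD, against 5.58% of 4410 genes called and 3.49% called higher. On chow in triceps edgeR called 0 of 5, against 0.726% of genes called and 0.431% called higher; 477 genes had an unadjusted p below 0.05, and DESeq2 and limma voom called 100 and 35 genes, 0 of them members. In scWAT on chow, edgeR called 0 of 6 members and 0% of all genes, although 377 genes had an unadjusted p below 0.05. In that comparison DESeq2 called 3 genes, 2 of them members, and limma voom 0. With the summed muscle markers as a covariate edgeR called 1 of 6 members there, Dbp (2.76 ± 0.48, adjusted p = 0.0472), among 3 of 7069 genes. On HFD in scWAT the covariate fit called 5 of 6 members as before, among 55 of 7069 genes. Same-numbered sedentary and trained libraries deviated together in scWAT on chow, a pairing that the labels do not state and that was taken from these data. With the replicate number as a block edgeR called 2 of 7069 genes there, 1 of 6 members among them. This member was Dbp at 2.50 ± 0.43 (adjusted p = 0.0377), while Tef was at 1.34 (adjusted p = 0.201). Throughout, a gene was called where the Benjamini-Hochberg adjusted p of edgeR's two-sided quasi-likelihood test, corrected over all genes tested in the tissue, was below 0.05. Errors beside log2 fold changes are standard errors.

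The labels name no library runs, but they say that cDNA of 12 wells was pooled. Runs were therefore assumed to be blocks of 12 consecutive library codes, placed where reads of organs that were not sampled changed along the codes. The running effect was tested within the assumed runs that could be fitted alone. In scWAT on HFD, Dbp was higher in trained mice by 2.64 ± 0.46 on the log2 scale in a run of 11 libraries (edgeR adjusted p = 0.0321) and by 3.40 ± 0.93 in a run of 9 (adjusted p = 1). Members called there were 2 of 7 tested and 0 of 6, against 22 of 7625 and 0 of 7560 genes. These runs held 3 and 2 HFD mice of each activity, in that order. In vWAT on chow, the Dbp values were 2.38 ± 0.60 in a run of 12 libraries (adjusted p = 0.201) and 2.79 ± 0.49 in a run of 5 (adjusted p = 0.00247), with 0 and 4 members called. The run of 12 held 2 sedentary and 3 trained chow mice, and the run of 5 held 3 and 2. On HFD in vWAT, 4 members were called in the run of 12, with 4 sedentary and 3 trained mice. The shares of all genes called in the vWAT runs are not given here, so these counts are no result about the members. On HFD in triceps, Dbp was 1.10 ± 0.44 in a run of 12 (adjusted p = 0.143). The Dbp difference was positive in each run with a value given here.

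**Figure D1:**
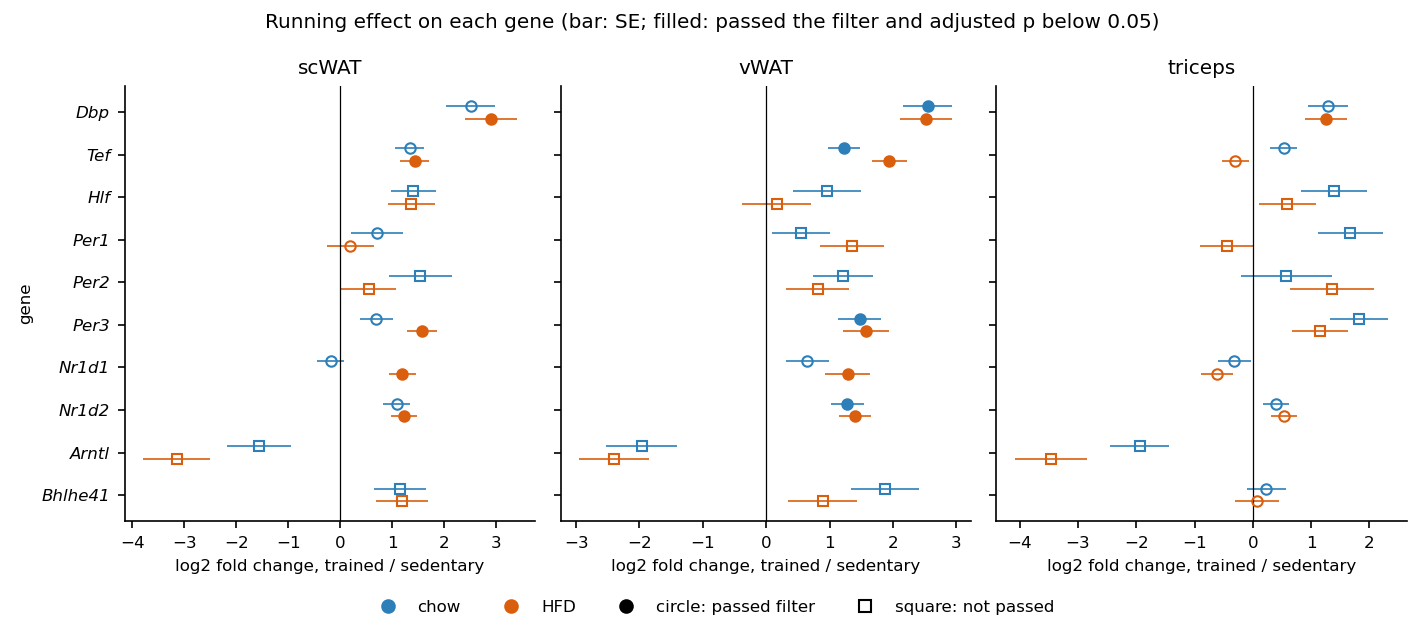
Log2 fold change of trained over sedentary mice for each of the 10 genes (rows) in scWAT, vWAT and triceps (panels), on chow (blue) and HFD (orange), with standard errors. Filled circles are called and open circles passed the filter without being called. Squares, all drawn open, did not pass the filter and come from the fit on all genes with a count, where 4 of the 6 Arntl values were called. Arntl lies left of 0 in every panel, while Dbp lies right of 0 in every panel, between 1.26 and 2.90.

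A single animal stood apart in all 3 tissues. Chow trained replicate 3 had 7 Dbp counts in scWAT, 7 in vWAT and 2 in triceps, where the other 4 trained mice on chow had 20 to 37. It was the lowest of the 5 chow trained libraries for 7 of the 10 genes in scWAT and for 6 each in vWAT and triceps, and the highest for Arntl in vWAT and triceps. In CPM its Dbp lay within the chow sedentary range in scWAT, just above it in vWAT and below it in triceps. Without this animal, 2 of 7 tested members were called in scWAT on chow (Dbp and Tef), against 5 of 7306 genes. In triceps on chow 1 member was called (Dbp), and the share of all genes called in that fit is not given here. With this animal, 0 members were called in either tissue. Since the animal was singled out by its values of these genes, leaving it out was bound to strengthen their running effects. These calls, and the running effects below without it, are a description and not support. The reason for the animal's values was not tested, and it was kept in every result that does not say otherwise.

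Arntl (ENSMUSG00000055116, chr7:113207465-113314126, plus strand), the activator of the loop, was the member that fell. In scWAT on HFD, the sedentary libraries held 9, 13, 5, 4 and 12 counts and the trained libraries 2, 1, 1, 0 and 0. In vWAT on HFD, sedentary libraries held 8, 6, 10, 7 and 11 counts and trained libraries 1, 4, 1, 0 and 1. In triceps on HFD, sedentary libraries held 11, 7, 9, 12 and 4 counts and trained libraries 0, 0, 1, 1 and 1. The groups did not overlap in any of the 3 tissues on HFD. In CPM, the HFD sedentary means were 12.9 ± 5.71 in scWAT, 12.7 ± 2.99 in vWAT and 12.3 ± 4.65 in triceps (SD, n = 5), and the trained means 1.20 ± 1.24, 2.14 ± 2.23 and 0.837 ± 0.766. These counts were too low for the filter in every tissue, so Arntl was tested in a fit on all genes with a count, from 20693 in triceps to 23884 in vWAT.

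In that fit Arntl fell by 3.14 ± 0.64 on the log2 scale in scWAT on HFD (edgeR adjusted p = 0.000525), where 0.846% of genes were called. Arntl fell by 2.40 ± 0.55 in vWAT (adjusted p = 0.00216, 1.49% called) and by 3.46 ± 0.62 in triceps (adjusted p = 1.47e-05, 1.14% called). An exact permutation test of the CPM means, not adjusted over genes, gave p = 0.00794 in each tissue on HFD, two-sided. That is the smallest p that 5 against 5 allows. On chow, sedentary libraries held 5, 4, 4, 9 and 5 counts in scWAT, and trained libraries 0, 3, 2, 1 and 2. The chow groups did not overlap in scWAT, yet the log2 fold change of -1.56 ± 0.61 was not called (edgeR adjusted p = 0.753, 0.127% of genes called). The exact permutation p there, not adjusted over genes, was 0.00794. In vWAT on chow the sedentary counts were 3, 3, 15, 5 and 8 and the trained counts 0, 1, 5, 2 and 0, a log2 fold change of -1.97 ± 0.56 (adjusted p = 0.0922, 0.348% called). In triceps on chow the sedentary counts were 4, 7, 13, 9 and 5 and the trained counts 1, 2, 5, 0 and 1. There Arntl fell by 1.94 ± 0.51 (adjusted p = 0.0493, 0.295% called), a call that ended when any of 8 of the 10 libraries was left out. The highest trained library in vWAT and triceps on chow, with 5 counts in each, was replicate 3. Without it the log2 fold change in vWAT was -2.97 (adjusted p = 0.00771), while with another library left out the adjusted p reached 0.778.

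**Figure D2:**
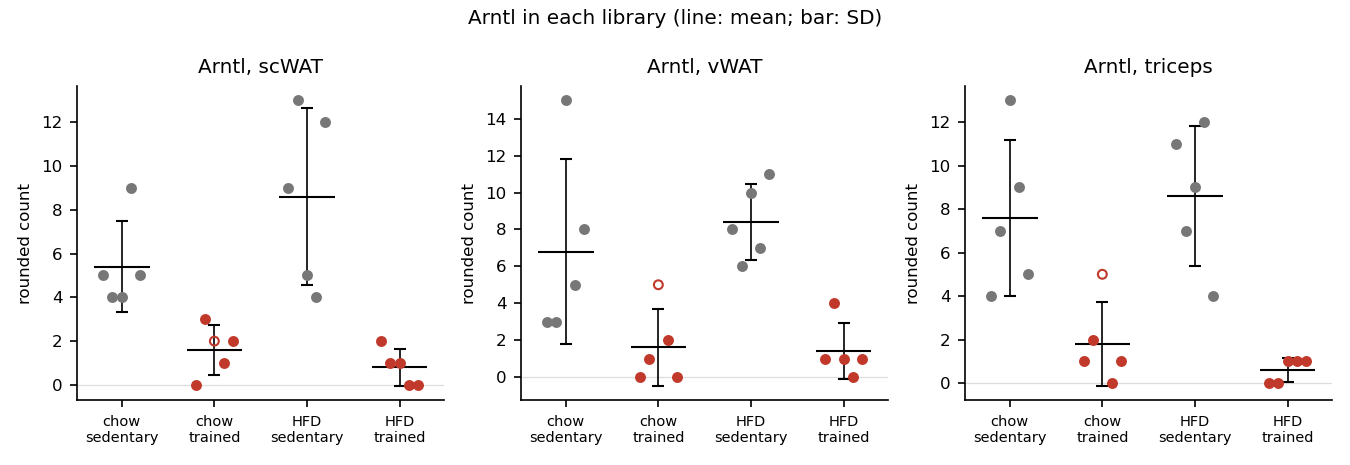
Rounded estimated Arntl counts (vertical axis, 1 point per library, sedentary grey and trained red) in the 4 groups of scWAT, vWAT and triceps, with the group mean (line) and SD (bar). The open point is chow trained replicate 3. HFD trained libraries hold 0 to 4 counts and HFD sedentary libraries 4 to 13.

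Of the Per genes, whose proteins repress BMAL1 and CLOCK, Per3 was called for running, and Per1 and Per2 were not; differences between the 3 genes were not tested. Per3 (ENSMUSG00000028957, chr4:151003652-151044665, minus strand), whose window above holds 2 D-boxes, had 17, 9, 13, 10 and 14 counts in HFD sedentary and 35, 29, 32, 40 and 46 in HFD trained scWAT. Every trained library was above every sedentary library, and Per3 rose by 1.57 ± 0.29 on the log2 scale (edgeR adjusted p = 0.00672). In vWAT on HFD the counts were 5, 15, 9, 4 and 3 in sedentary and 26, 14, 15, 23 and 24 in trained mice, and Per3 rose by 1.57 ± 0.36 (adjusted p = 0.0123). The groups overlapped there through sedentary replicate 2. In vWAT on chow it rose by 1.47 ± 0.34 (adjusted p = 0.0334), from 7, 13, 4, 7 and 12 to 26, 30, 10, 26 and 25 counts. Trained replicate 3 was the library that overlapped with the sedentary group, and the call ended when any of 7 of the 10 libraries was left out. In scWAT on chow the log2 fold change was 0.70 ± 0.32 (adjusted p = 0.902) and the groups overlapped, with 16, 10, 9, 5 and 13 counts in sedentary and 29, 17, 6, 12 and 16 in trained mice. In triceps Per3 held 0 to 14 counts and did not pass the filter, and its log2 fold changes were 1.82 ± 0.50 on chow (adjusted p = 0.0839) and 1.16 ± 0.48 on HFD (adjusted p = 0.412).

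Per1 (ENSMUSG00000020893, chr11:69095217-69109960, plus strand), which also responds directly to glucocorticoids and cAMP, passed the filter in scWAT alone. Its counts there were 10, 7, 12, 5 and 11 in HFD sedentary and 7, 11, 7, 6 and 19 in HFD trained mice. The groups overlapped, with log2 fold changes of 0.19 ± 0.45 on HFD (edgeR adjusted p = 0.939) and 0.71 ± 0.49 on chow (adjusted p = 0.942). In vWAT and triceps, Per1 counts were at most 13 and no running effect was called in the fit on all genes with a count. Its log2 fold changes there were 0.55 ± 0.46 on chow and 1.35 ± 0.50 on HFD in vWAT, and 1.67 ± 0.56 and -0.44 ± 0.46 in triceps. Per2 (ENSMUSG00000055866, chr1:91415982-91459324, minus strand) was the lowest Per gene, with 0 to 10 counts in any library. Its log2 fold changes were positive in all 6 comparisons, from 0.55 ± 0.53 in scWAT on HFD to 1.54 ± 0.60 in scWAT on chow, and none was called, with adjusted p from 0.561 to 0.934. In vWAT on chow its counts were 1, 2, 4, 3 and 7 in sedentary and 10, 6, 8, 7 and 8 in trained mice, which overlapped at 6 and 7 counts.

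Nr1d1 (REV-ERBα, ENSMUSG00000020889, chr11:98767932-98775333, minus strand) represses Arntl and lipid genes. It rose in fat on HFD and did not rise in triceps. Its counts in scWAT on HFD were 19, 30, 30, 20 and 13 in sedentary and 49, 51, 46, 53 and 49 in trained mice. All trained libraries lay above all sedentary libraries, and the rise was 1.19 ± 0.26 on the log2 scale (edgeR adjusted p = 0.0190). On HFD in vWAT its counts were 9, 24, 15, 12 and 10 in sedentary and 38, 26, 35, 35 and 28 in trained mice, a rise of 1.29 ± 0.35 (adjusted p = 0.0468). In CPM these 2 vWAT groups met at their edges, at 38.7 in the highest sedentary and 38.5 in the lowest trained library. That call ended when any of 8 of the 10 libraries was left out, with adjusted p up to 0.165.

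On chow Nr1d1 was not called in fat. The log2 fold change was -0.18 ± 0.27 in scWAT (edgeR adjusted p = 0.998), where sedentary libraries held 37, 27, 17, 18 and 37 counts and trained libraries 20, 12, 27, 28 and 23. It was 0.65 ± 0.34 in vWAT (adjusted p = 0.659), where the groups overlapped. In triceps on HFD Nr1d1 had 35, 15, 20, 16 and 23 counts in sedentary and 17, 12, 9, 18 and 8 in trained mice, a log2 fold change of -0.62 ± 0.28 (adjusted p = 0.206). On chow in triceps it was -0.32 ± 0.28 (adjusted p = 0.783).

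Nr1d2 (REV-ERBβ, ENSMUSG00000021775, chr14:18204054-18239127, minus strand), the paralog with overlapping function, rose in both depots on HFD and in vWAT on chow. Its counts in scWAT on HFD were 14, 28, 16, 12 and 15 in sedentary and 50, 48, 27, 27 and 41 in trained mice, a rise of 1.23 ± 0.25 (edgeR adjusted p = 0.0131). The vWAT counts on HFD were 10, 18, 9, 14 and 10 against 44, 27, 28, 29 and 25, a rise of 1.40 ± 0.26 (adjusted p = 0.00147). In CPM neither pair of groups overlapped. In vWAT on chow the counts were 7, 13, 11, 12 and 18 in sedentary and 33, 32, 13, 37 and 29 in trained mice, a rise of 1.28 ± 0.26 (adjusted p = 0.0104). Again trained replicate 3 was the library within the sedentary range. In scWAT on chow the log2 fold change was 1.09 ± 0.26 and was not called (adjusted p = 0.319), with means of 26.3 ± 11.1 and 49.9 ± 12.3 CPM (SD, n = 5). In triceps the log2 fold changes were 0.39 ± 0.22 on chow (adjusted p = 0.541) and 0.54 ± 0.22 on HFD (adjusted p = 0.153). With a library left out, the HFD value in triceps ran from 0.44 to 0.78, and the adjusted p from 0.0413 to 0.308. The highest value came without HFD sedentary replicate 3, the highest of its group at 65.1 CPM. Leaving out a high sedentary library was bound to raise the difference, so this value is not support.

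Dbp (ENSMUSG00000059824, chr7:45705088-45710203, plus strand), a PAR bZIP factor and a direct target of BMAL1 and CLOCK, had the highest log2 fold change for running of the members that passed the filter, in each tissue and on each diet. In scWAT on HFD the counts were 1, 4, 6, 3 and 4 in sedentary and 26, 25, 17, 36 and 30 in trained mice. In CPM the means were 5.54 ± 2.88 and 41.4 ± 12.4 (SD, n = 5), and the groups did not overlap. The rise was 2.90 ± 0.49 on the log2 scale (edgeR adjusted p = 0.00513). In scWAT on chow the counts were 5, 11, 0, 3 and 4 in sedentary and 37, 35, 7, 24 and 22 in trained mice, and the means 8.16 ± 8.17 and 40.8 ± 20.0 CPM. That log2 fold change of 2.51 ± 0.48 missed the threshold (adjusted p = 0.0972), and trained replicate 3 was the library that overlapped. The exact permutation test of the CPM means, not adjusted over genes, gave p = 0.0159. Without replicate 3 edgeR's adjusted p was 0.00475, and with another library left out it reached 0.304.

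In vWAT Dbp counts were 3, 7, 1, 3 and 4 in chow sedentary and 21, 31, 7, 21 and 25 in chow trained mice. On HFD they were 1, 6, 4, 1 and 3 in sedentary and 18, 12, 15, 19 and 20 in trained mice. Neither pair of groups overlapped in CPM, although on chow the gap between them was from 11.4 to 11.7. Dbp rose by 2.55 ± 0.39 on chow (edgeR adjusted p = 0.000296) and by 2.52 ± 0.41 on HFD (adjusted p = 0.000665). In triceps the counts were 10, 5, 7, 5 and 8 in chow sedentary and 21, 20, 2, 20 and 20 in chow trained mice. On HFD they were 7, 9, 4, 9 and 4 in sedentary and 17, 10, 13, 11 and 21 in trained mice. The HFD groups did not overlap in CPM (highest sedentary 12.8, lowest trained 13.8) and Dbp rose by 1.26 ± 0.35 (adjusted p = 0.0248). On chow the log2 fold change in triceps was 1.28 ± 0.34 (adjusted p = 0.0573). It was 1.54 without replicate 3 (adjusted p = 0.00354), and with another library left out the adjusted p reached 0.138. The HFD call in triceps did not hold with limma voom (adjusted p = 0.128), nor on total counts (adjusted p = 0.0610), nor without any of 6 of the 10 libraries.

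**Figure D3:**
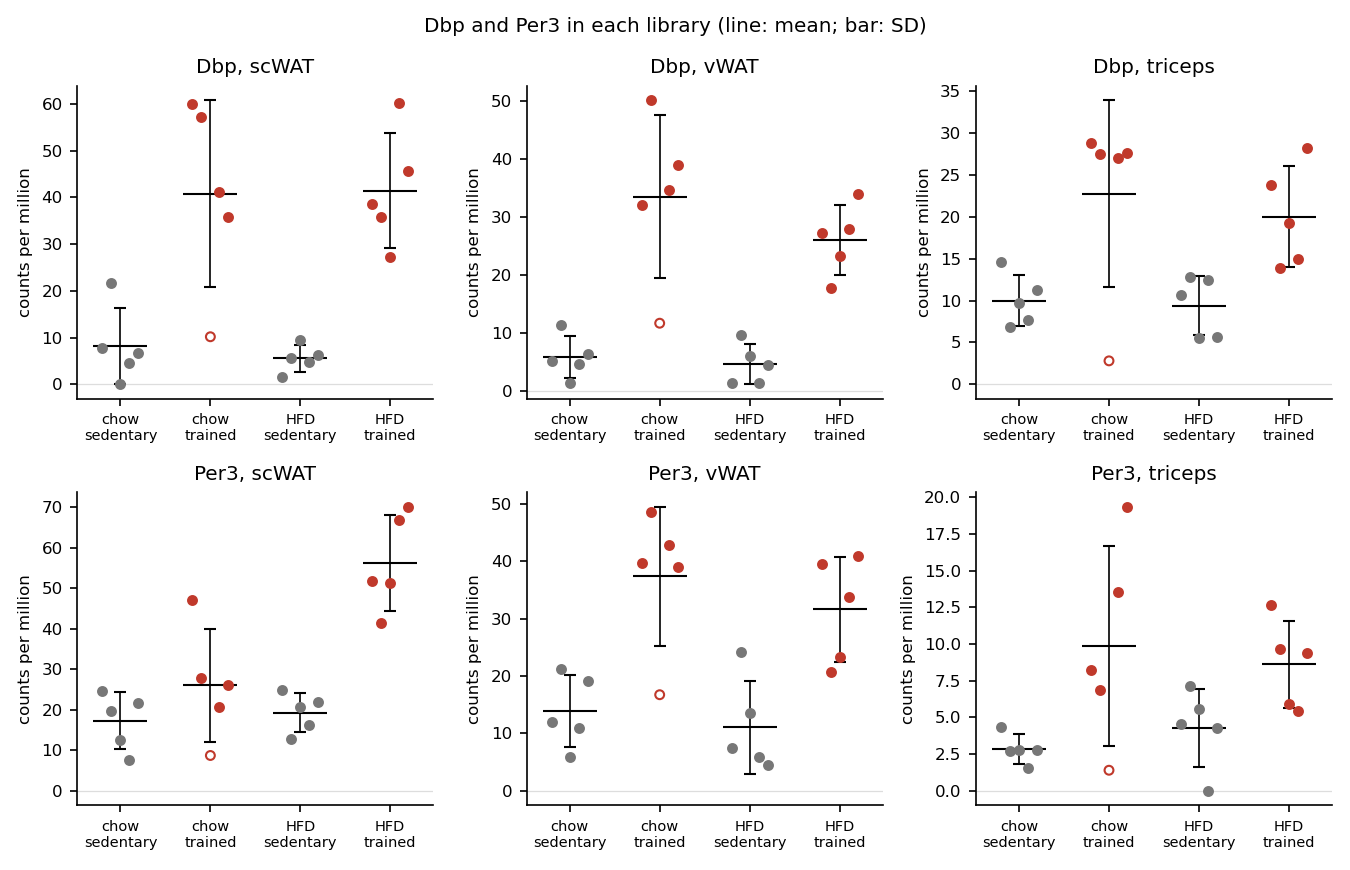
Dbp (top) and Per3 (bottom) in CPM of each library (1 point each) in the 4 groups of scWAT, vWAT and triceps, with group mean (line) and SD (bar). The open point is chow trained replicate 3, which lies at 2.80 to 11.7 CPM for Dbp, apart from the other chow trained libraries in each tissue.

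Tef (ENSMUSG00000022389, chr15:81802421-81826863, plus strand), the second PAR bZIP factor and the one with an E-box in the window above, rose in fat. Its counts in scWAT on HFD were 15, 23, 30, 13 and 17 in sedentary and 45, 36, 61, 50 and 64 in trained mice. The groups did not overlap and the rise was 1.43 ± 0.28 (edgeR adjusted p = 0.00739). On HFD in vWAT the counts were 12, 11, 13, 8 and 6 against 36, 32, 29, 39 and 46, with a rise of 1.94 ± 0.27 (adjusted p = 6.89e-05) and no overlap. On chow in vWAT they were 15, 15, 11, 16 and 30 against 33, 55, 23, 38 and 50, with overlap and a rise of 1.23 ± 0.25 (adjusted p = 0.0104). Sedentary replicate 5 was the high sedentary library there, at 47.8 CPM. In scWAT on chow the log2 fold change of 1.34 ± 0.28 was not called (adjusted p = 0.188). Without trained replicate 3 it was 1.47 (adjusted p = 0.0402), while with another library left out the adjusted p reached 0.406. In triceps on HFD Tef counts were 40, 34, 37, 30 and 32 in sedentary and 30, 18, 15, 29 and 35 in trained mice, a log2 fold change of -0.30 ± 0.23 (adjusted p = 0.523). On chow in triceps it was 0.53 ± 0.23 (adjusted p = 0.362).

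Hlf (ENSMUSG00000003949, chr11:90336536-90390895, minus strand), the third member of the PAR bZIP family, had 0 to 20 counts and did not pass the filter in any tissue. In scWAT its CPM means were 6.96 ± 1.04 in chow sedentary and 17.6 ± 9.93 in chow trained mice, and 5.52 ± 3.52 and 14.1 ± 6.28 on HFD (SD, n = 5). The log2 fold changes of 1.41 ± 0.43 on chow and 1.37 ± 0.45 on HFD were not called in the fit on all genes with a count (edgeR adjusted p = 0.315 and 0.164). In vWAT they were 0.95 ± 0.54 on chow and 0.16 ± 0.54 on HFD, and in triceps 1.39 ± 0.57 and 0.59 ± 0.49, none of them called. Bhlhe41 (DEC2, ENSMUSG00000030256, chr6:145858243-145865558, minus strand), a repressor that competes for E-boxes, passed the filter in triceps alone. There its log2 fold changes were 0.23 ± 0.34 on chow and 0.08 ± 0.38 on HFD, with adjusted p of 0.902 and 0.946, and the HFD value changed sign on total counts. In fat its log2 fold changes ran from 0.89 ± 0.55 in vWAT on HFD to 1.87 ± 0.54 in vWAT on chow, none of them called.

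The running effect on 2 members differed between fat and muscle. In a fit of all 60 libraries with the animal as a block, 8501 genes and 9 members were tested. On HFD the running effect on Tef was lower in triceps than in scWAT by a log2 difference of -1.83 ± 0.31 (edgeR adjusted p = 0.00181), and lower than in vWAT by -2.30 ± 0.33 (adjusted p = 4.08e-05). That on Nr1d1 was lower by -1.91 ± 0.38 against scWAT (adjusted p = 0.00458) and by -1.97 ± 0.40 against vWAT (adjusted p = 0.00779). These were 2 of 9 members in each comparison, where 0.400% and 0.306% of all genes were called. For Dbp the same differences on HFD were -1.71 ± 0.51 (adjusted p = 0.125) and -1.30 ± 0.53 (adjusted p = 0.354). Thus the smaller fold of Dbp in triceps was not separated from that in fat by this test. On chow, edgeR called 0 of 9 members between triceps and scWAT, against 0.0235% of genes, and 0 between triceps and vWAT, against 0%. At an unadjusted edgeR p below 0.05 were 3 and 5 members, with Dbp, Tef and Nr1d2 in both. The share of all genes at that threshold is not given here, so these counts are no result about the members. Between the 2 fat depots 0 of 9 members were called on either diet, against 0.0118% of genes on HFD and 0% on chow. With limma voom and the animal as a random block, Tef held in both comparisons (1 of 9 members each) and Nr1d1 missed the threshold (adjusted p = 0.0556 and 0.0685).

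**Figure D4:**
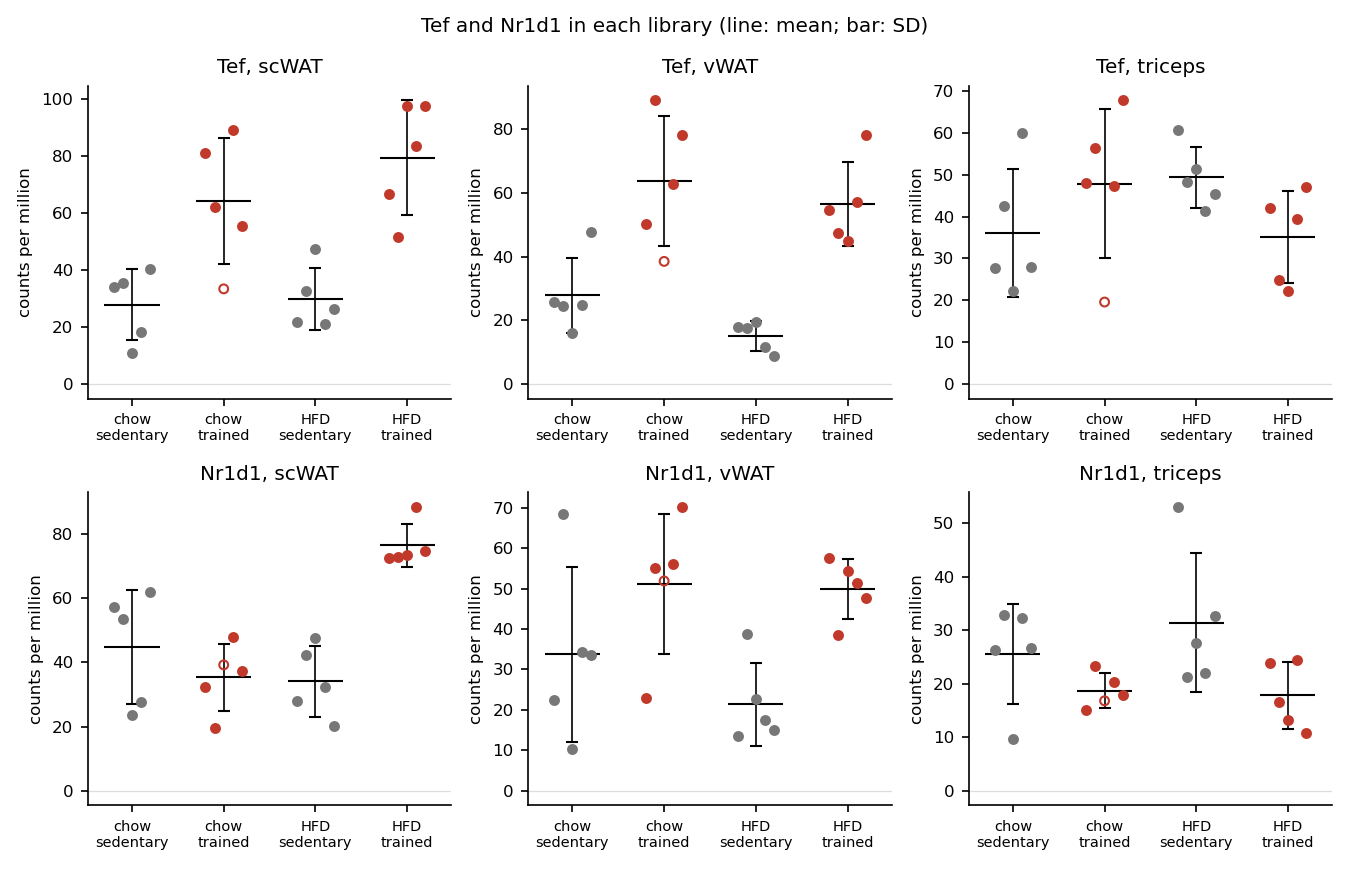
Tef (top) and Nr1d1 (bottom) in CPM of each library (1 point each) in the 4 groups of scWAT, vWAT and triceps, with group mean (line) and SD (bar); the open point is chow trained replicate 3. On HFD, trained means exceed sedentary means in both fat depots, and in triceps the Tef mean is 35.1 in trained and 49.4 in sedentary mice.

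Few differences between diets were called among the members. In 48 combinations of tested member, tissue and contrast (HFD against chow in sedentary mice, the same in trained mice, and the diet by running interaction), 1 was called. Tef was lower on HFD in sedentary vWAT, where it fell by 1.06 ± 0.30 on the log2 scale (edgeR adjusted p = 0.0211), with means of 27.8 ± 11.9 CPM on chow and 15.2 ± 4.60 CPM on HFD (SD, n = 5). The groups overlapped, and 8.05% of all genes were called in that comparison, 4.15% of all genes being lower. In sedentary scWAT and triceps 0 members were called, against 6.35% and 0% of genes. In trained mice 0 were called, against 5.16%, 2.62% and 0% of genes in scWAT, vWAT and triceps. For the interaction edgeR called 0 of the tested members in each of the 3 tissues, against 0%, 0.0143% and 0% of genes. The lowest p among the members was that of Nr1d1 in scWAT, whose running effect was 1.38 ± 0.37 higher on HFD than on chow (unadjusted p = 0.00104, adjusted p = 0.437). The call depended on the method and the filter. DESeq2 called that interaction of Nr1d1 at an adjusted p of 0.0496, edgeR called it in the fit on all genes with a count (1.37 ± 0.34, adjusted p = 0.0325), and limma voom called no member.

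The same animals were then followed across tissues. Log2 CPM values of Dbp, Tef and the Per genes were taken as deviations from the mean of each animal's group and correlated over the 20 animals. This removes the mean effects of diet and running, while any difference in running between mice of the same group stays in. Of these genes, Dbp and Tef passed the filter in all 3 tissues and Per3 in both fat depots, which gave 7 combinations of gene and tissue pair. Dbp deviated together in scWAT and vWAT, with Pearson's r = 0.80 (permutation p = 0.00062) and Spearman's rho = 0.66 (permutation p = 0.00373). This r was the 12th highest of 6524 genes, whose median was 0.06. Adjusted over all 6524 genes, its p was 0.168, and 0 genes fell below 0.05 in that pair of tissues. With library runs removed as well as group means, r was 0.74 (permutation p = 0.00978). Without the 2 animals farthest from the median in scWAT, r was 0.63 (permutation p = 0.0166), and without chow trained replicate 3 it was 0.72 (permutation p = 0.00657).

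Tef gave r = 0.53 between scWAT and vWAT (permutation p = 0.0383, rho = 0.44 with permutation p = 0.0812). Without the 2 animals farthest from the median r was 0.33 (permutation p = 0.229), which no longer passed 0.05. Between vWAT and triceps Tef gave r = 0.51 (permutation p = 0.048, rho = 0.53 with permutation p = 0.0259). That value was 0.58 without the 2 farthest animals (permutation p = 0.00164), 0.52 with library runs removed (permutation p = 0.152) and 0.36 without chow trained replicate 3 (permutation p = 0.212). Adjusted over all genes tested in both tissues, the p values of Tef were 0.575 and 0.786. Per3 between the fat depots gave r = 0.30 and rho = 0.33 (permutation p = 0.229 and 0.201). Dbp gave r = 0.32 and rho = 0.25 between scWAT and triceps (permutation p = 0.248 and 0.335), and r = 0.44 and rho = 0.22 between vWAT and triceps (permutation p = 0.142 and 0.354). Without chow trained replicate 3 these 2 Dbp values were -0.24 and -0.08, so the positive values rest on that animal. Tef gave r = 0.19 and rho = 0.03 between scWAT and triceps (permutation p = 0.504 and 0.909).

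The other 8 combinations of a Per gene and a tissue pair failed the filter in at least 1 of the tissues and are given as a description. Per1 gave r = 0.67 between the fat depots (permutation p = 0.00266, rho = 0.64 with permutation p = 0.00703), and r = 0.54 without the 2 farthest animals (permutation p = 0.0524). It gave r = 0.36 between scWAT and triceps and r = 0.13 between vWAT and triceps. Per2 gave r = 0.60 between scWAT and triceps (permutation p = 0.0148, rho = 0.57 with permutation p = 0.0220), and r = 0.35 without the 2 farthest animals (permutation p = 0.144). Its r was 0.18 between the fat depots and -0.05 between vWAT and triceps. Per3 gave r = 0.50 between vWAT and triceps (permutation p = 0.0554) and r = 0.30 between scWAT and triceps. These r values of the Per genes ranged widely between pairs of tissues, and the differences among them were not tested.

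**Figure D5:**
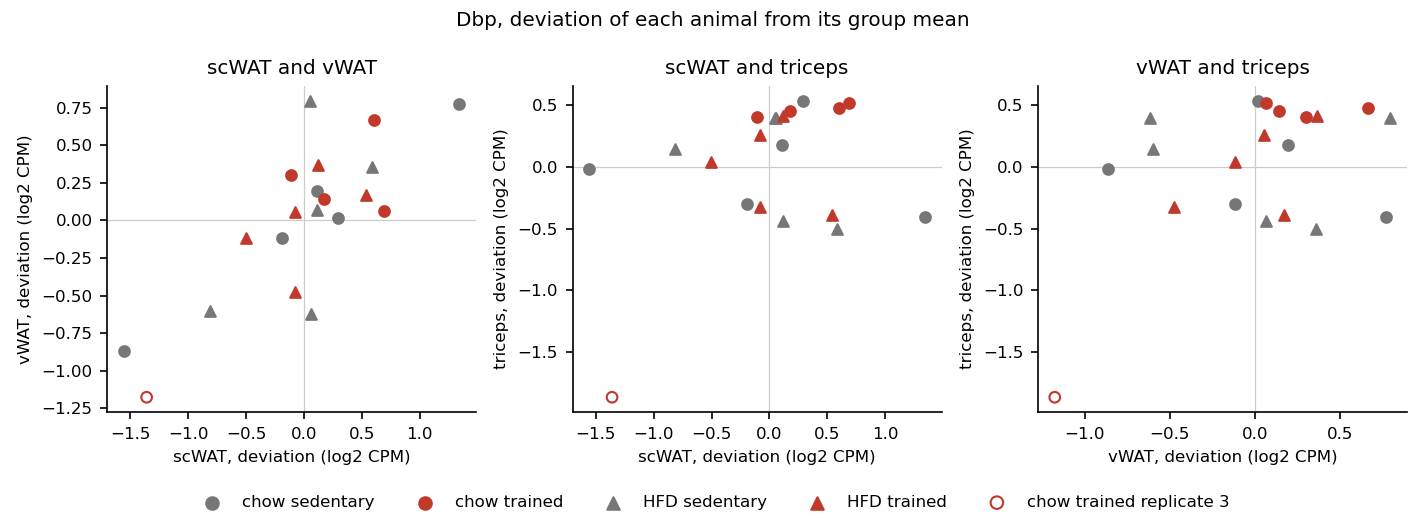
Deviation of each animal's Dbp from its group mean (log2 CPM) in 1 tissue against another, 1 point per animal, with chow as circles and HFD as triangles, sedentary in grey and trained in red. The open circle is chow trained replicate 3, the lowest animal on the vertical axis of all 3 panels. Without it r is 0.72 for scWAT and vWAT, -0.24 for scWAT and triceps and -0.08 for vWAT and triceps.

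Within a tissue, the members' deviations from the group means were compared with those of Dbp over the 20 libraries, as a description in which both values share the library and its depth. In vWAT, r with Dbp was 0.88 for Per3, 0.61 for Nr1d1, 0.60 for Tef, 0.56 for Nr1d2, 0.51 for Bhlhe41, 0.32 for Hlf, 0.17 for Per1, 0.0068 for Per2 and -0.63 for Arntl. In scWAT it was 0.70 for Tef, 0.60 for Bhlhe41, 0.51 for Per3, 0.36 for Nr1d2, 0.26 for Per2, 0.24 for Per1, 0.20 for Hlf and Nr1d1, and -0.24 for Arntl. In triceps it was 0.66 for Hlf, 0.53 for Per3, 0.51 for Per2, 0.47 for Nr1d2, 0.45 for Tef, 0.13 for Bhlhe41, 0.10 for Per1, -0.17 for Nr1d1 and -0.49 for Arntl. Arntl thus had the lowest r with Dbp of the other 9 members in each tissue. Arntl held 0 to 5 counts in trained libraries, and no r with Dbp is given without chow trained replicate 3. That animal had the lowest Dbp of its group in all 3 tissues and the highest Arntl in vWAT and triceps. The genes outside the 10 that were most like Dbp were Etf1 (0.92), Trarg1 (0.91), Por (0.85), Hk2 (0.82) and Pwwp3a (0.81) of 6396 in vWAT. In scWAT they were Supt4a (0.81), Cpsf1, Aebp2, Ankrd12 and Os9 (0.77) of 6273 genes, and in triceps Cyp27a1 (0.77), Vmn1r13, Glod4, Desi2 and Rpp25l (0.69) of 3736. Por encodes the electron donor of cytochrome P450 enzymes and Hk2 a hexokinase. No gene was among the 5 most like Dbp in more than 1 tissue.

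Beyond the 10 genes, few clock genes that passed the filter were called. Of 16 further core clock genes, 8 were tested in scWAT, 7 in vWAT and 6 in triceps. Of these 1 was called in the 6 running comparisons: Bhlhe40 (DEC1), the paralog of Bhlhe41, rose by 1.55 ± 0.40 in vWAT on HFD (edgeR adjusted p = 0.0296). Its means there were 12.7 ± 10.4 CPM in sedentary and 36.6 ± 7.94 CPM in trained mice (SD, n = 5). The median of the tested genes of this list was 0.34 there, beside 0.02 over all genes. In that comparison 3.09% of all genes were called and 1.22% called higher, so a single call is no result about the list. Clock, the partner of Arntl, was tested in all 3 tissues and its log2 fold changes lay between -0.87 and -0.25, none of them called. Ciart, also of this list, failed the filter. In the fit on all genes with a count it was called higher in all 6 running comparisons, as given under the other observations.

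Of 7 further output genes, 3 to 5 were tested in each tissue. Cdkn1a, a cell cycle inhibitor, fell by 2.08 ± 0.37 on the log2 scale in scWAT on HFD (edgeR adjusted p = 0.00513), and in vWAT on HFD it fell by 2.38 ± 0.42 (adjusted p = 0.00302). Its HFD means were 47.4 ± 14.0 and 10.8 ± 4.99 CPM in sedentary and trained scWAT, and 65.7 ± 14.8 and 12.1 ± 4.52 CPM in vWAT (SD, n = 5). In triceps Cdkn1a failed the filter, and in the fit on all genes with a count it fell by 2.17 ± 0.53 on HFD (adjusted p = 0.00792), from 10.6 ± 5.53 to 1.93 ± 2.25 CPM. On chow that fit gave -1.54 ± 0.44 in triceps (adjusted p = 0.109). Alas1, which begins haem synthesis, rose by 0.88 ± 0.16 in triceps on HFD (adjusted p = 0.000826), from 74.8 ± 17.6 to 121 ± 12.7 CPM. Lists of stress-related genes stood beside them, since glucocorticoids are known to drive Per1. Of 9 glucocorticoid target genes, 8 were tested in each tissue and 1 was called in the running comparisons, Mt2, a metallothionein, which fell by 1.08 ± 0.26 in scWAT on HFD (adjusted p = 0.0343). Of 13 immediate early genes, 3 were tested in each tissue and none was called by edgeR in the 6 running comparisons, with list medians between -0.41 and 0.26.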

How the data were processed

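The authors deposited rounded estimated counts per gene and library, per the file headers, made with Salmon 0.14.2 on mm10, per the submitters' processing notes, and log2 values of CPM plus 1 per library, which the authors' deposited table holds beside the counts and which were used only to check the unit. Neither strand nor use of molecular identifiers is stated there or in the labels. Gene coordinates come from GENCODE vM21 and promoters from RefSeq, both GRCm38.

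The 10 genes and all lists were chosen with earlier results of these data known, so no p value is adjusted over a list alone. The correlations across tissues were to be adjusted over their 7 combinations; they are adjusted over all genes instead.

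Each tissue was fitted in edgeR 4.0.16 (R 4.3.3; TMM, filterByExpr by group, robust quasi-likelihood, 20 libraries, 5 per group). Members that failed the filter come from a fit on all genes with a count. Tissue differences used all 60 libraries with the animal as a block. Correlations used log2 CPM (prior count 2) and 100000 permutations of animals within groups. Named genes are all 10 members, up to 3 called genes of each other list with the lowest adjusted p in each running comparison, and the 5 genes most like Dbp in each tissue with a mean log2 CPM of at least 4. Fits and correlations were tested on simulated data. Alternatives used DESeq2 1.42.0 and limma 3.58.1, other scalings and filters, assumed library runs, marker covariates, left-out libraries and a replicate block. The labels state no litter or day shared by same-numbered libraries. In scWAT on chow all 5 same-numbered pairs deviated together (correlations of 0.125 to 0.559 across genes), which was taken as pairing from the data alone; in the other 5 comparisons at least 1 pair was at or below 0.1. Each replicate library came from its own animal, and no 2 libraries of a group were identical.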

Additional observations from a re-analysis of the deposited data

Results flagged for a closer look

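In the 64 groups of 5 libraries checked, a library stood apart from the rest of its group in 6. The threshold is set for about 1 in 20 groups of independent, normally distributed values. These groups share animals and libraries and hold low counts, so that rate need not hold for them. Dbp in triceps of chow trained mice was 2.80 CPM in replicate 3, with the next library at 27.1 CPM. Nr1d2 in the same library was 15.4 CPM, with the next at 46.8 CPM. Both come from the animal that was low for Dbp in all 3 tissues, and the reason was not tested.

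Nr1d1 in scWAT of HFD trained mice was 88.5 CPM in replicate 4, with the others at 72.5 to 74.6 CPM. Nr1d1 in triceps of chow sedentary mice was 9.68 CPM in replicate 3, with the next at 26.2 CPM. Nr1d2 in vWAT of HFD trained mice was 66.8 CPM in replicate 1, with the next at 43.5 CPM. Nr1d2 in triceps of HFD sedentary mice was 65.1 CPM in replicate 3, with the next at 38.3 CPM.

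The running effect on HFD differed between muscle and fat for 2 members, by the test of the difference itself. The log2 difference of triceps minus scWAT was -1.83 for Tef and -1.91 for Nr1d1, and that of triceps minus vWAT was -2.30 for Tef and -1.97 for Nr1d1.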

How the results depend on the processing

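Of 19 called member values, 153 of 190 values with a library left out and 152 of 182 under other alternatives kept their call, and none changed sign. Of 41 values that were not called, 9 of 410 passed the threshold with a library left out and 10 of 348 under other alternatives. In the counts below, the members and genes tested differ between alternatives, so the counts show only how calls move with the method. For running in scWAT on chow, DESeq2 called 3 of 7069 genes, and the fit on all genes with a count 30 of 23534.

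Members called in scWAT on chow were 0, with 2 under DESeq2, 3 on all genes with a count, 1 with a replicate block, 1 with a muscle marker covariate and 0 to 2 with a library left out, 1 without chow sedentary replicate 2. In scWAT on HFD they were 5, with 2 in the run of 11 libraries alone, 0 in the run of 9 alone and 3 to 5 with a library left out, the lowest without HFD sedentary replicate 5 or HFD trained replicate 2; with the muscle covariate 5 were called. In vWAT on chow they were 4, with 0 in the run of 12 libraries alone and 2 to 4 with a library left out, the lowest without chow trained replicate 2 or 4. In vWAT on HFD they were 5, and 4 to 5 with a library left out. In triceps on chow they were 0, with 2 on all genes with a count, 1 with library run as a factor and 0 to 1 with a library left out. In triceps on HFD they were 1, with 0 on total counts, 0 under limma voom, 2 on all genes with a count and 0 to 1 with a library left out, 0 when HFD trained replicate 1, 3 or 5 or HFD sedentary replicate 1 or 5 was absent.

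Diet and interaction calls were 1, with 2 under the stricter filter, on total counts, with library run as a factor, with a replicate block and with the muscle covariate. They were 3 under DESeq2, 5 on all genes with a count, 0 under limma voom and 0 to 2 with a library left out. The fit on all genes with a count tested all 10 members, so its 5 calls come from more combinations. For diet in scWAT that fit called 724 of 23534 genes in sedentary and 747 in trained mice, 0 and 2 of them members. These counts are no result about the members. Calls for tissue differences were 4, and 2 under limma voom with duplicateCorrelation. Correlations with a permutation p below 0.05 were 3, with 5 when group means were kept and 1 without chow trained replicate 3, an alternative chosen after seeing the data. Diet alternatives and those of members that failed the filter were added then too. The cause of these changes was not tested.

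Values not called that changed sign were Hlf in vWAT on HFD (-0.28), Bhlhe41 in triceps on HFD (-0.33) and Per2 in triceps on chow (-0.48) in the run of 12 libraries alone, Bhlhe41 on total counts (-0.10), Per1 in scWAT on HFD with the muscle covariate (-0.059), and Nr1d1 in scWAT on chow in the run of 11 alone (0.029) and without the libraries with lymph node transcripts (0.030). With a library left out, Per1 in scWAT on HFD ranged from -0.14 to 0.34 and Bhlhe41 in triceps on HFD from -0.23 to 0.52. Differences between tissues that changed sign were, on chow, Hlf in triceps minus scWAT without the animal block (-0.0013) and, under limma voom, Per3 (-0.0011) and Arntl (0.024) in triceps minus vWAT and Dbp in vWAT minus scWAT (-0.40), and on HFD under limma voom Per3 in vWAT minus scWAT (0.12). Correlations that changed sign were those of scWAT and triceps without the 2 farthest animals, for Dbp (-0.16) and Tef (-0.31), and, without chow trained replicate 3, Dbp (-0.24) and Tef (-0.036) in scWAT and triceps and Dbp in vWAT and triceps (-0.080).

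For the replicate block (same number in trained and sedentary groups), 17 of 30 same-numbered pairs correlated above 0.1, 5 of 5 in scWAT on chow and fewer elsewhere. It moved no count of members called other than those given above. Library runs are assumed blocks of library codes. Depth limits Arntl, Per2, Hlf, Per1 outside scWAT and Bhlhe41 in fat, which failed the filter. DESeq2 gave no adjusted p for 30 values, which are left out.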

Other observations

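Ciart, a clock repressor that is switched on through E-boxes, belongs to the list of further core clock genes but failed the filter in every tissue, and it was picked out here after its values were seen. In scWAT on HFD the sedentary libraries held 1, 1, 1, 1 and 0 counts and the trained libraries 13, 9, 7, 6 and 14. In vWAT on HFD they held 0, 0, 1, 1 and 0 counts against 6, 3, 8, 6 and 5, and in triceps on HFD 2, 2, 1, 2 and 1 against 4, 8, 4, 7 and 7. The HFD groups did not overlap in counts in any tissue. On chow the trained libraries held 10, 12, 3, 9 and 9 counts (scWAT), 16, 20, 0, 15 and 9 (vWAT) and 7, 4, 0, 7 and 17 (triceps). The sedentary libraries on chow held 0 to 3. Chow trained replicate 3 was again the lowest of its group, with 3, 0 and 0 counts. In the fit on all genes with a count, edgeR called Ciart higher in all 6 running comparisons. The edgeR adjusted p for scWAT was 0.000214 (chow) and 1.17e-05 (HFD), for vWAT 4.77e-09 and 0.000184, and for triceps 0.00984 and 0.0370.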
